A study of Mus musculus with 6 samples.

Results

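Transcripts of macrophages and microglia were present in RNA of meningeal lymphatic endothelial cells that had been sorted as CD45-negative. The group described here has 31 genes, chosen by name as markers of macrophages and microglia, and all 31 were found among the 22964 genes of the table. The libraries were made from CD45-negative, CD31-positive and podoplanin-positive cells of the meninges of wild-type male C57BL/6J mice that received no treatment. There were 3 libraries from young mice aged 2 to 3 months and 3 from old mice aged 20 to 24 months. Mice came from Jackson Labs or the NIH/NIA. Neither the supplier of each library's mice, nor whether a library was 1 animal or a pool, is given in these sources. Lymphatic endothelial markers were well represented in all 6 libraries, with the 8 markers listed summing to between 10098 and 19257 CPM (estimated counts divided by the library total after TMM scaling, in the usual depth-scaled unit). The libraries held between 14285794 and 21043945 estimated counts.

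Macrophages at the borders of the brain (meninges, perivascular spaces and choroid plexus) and microglia inside the brain tissue are separate populations of resident phagocytes. Both depend on the receptor Csf1r and the transcription factor PU.1 (Spi1), and both carry C1q, Fc receptors and the adaptor Tyrobp. Border macrophages are known for Pf4, Ms4a7, Cd163, F13a1 and Siglec1, and microglia for P2ry12, Tmem119 and the transcription factor Sall1. CD45, encoded by Ptprc, is the leukocyte surface protein against which the cells were sorted. In bulk RNA, fewer cells of a type and less RNA per cell cannot be told apart.

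The 30-base stretches that follow show a sequence shared by several members of both kinds. They are centred on matches to the letters AGGAAGT, a core of the ETS family of transcription factors, to which PU.1 belongs. RefSeq promoter windows of GRCm38.p6 were matched by symbol for 23 of the 31 genes, and the 250 bases before each annotated start were searched on both strands. Capitals mark the match, and each stretch is written in the direction in which the match reads AGGAAGT.
Ptprc, chr1:138175400-138175429, minus strand: tacttgaattaAGGAAGTaagaagccattg
Ptprc, chr1:138175346-138175375, plus strand: gtcctctttgcAGGAAGTtaaaaaaaaaaa
Fcgr1, chr3:96294013-96294042, plus strand: agaaaagaggaAGGAAGTtgccatttctgc
C1qb, chr4:136886236-136886265, plus strand: ctgctgccctcAGGAAGTttcaggtcctgt
C1qc, chr4:136893092-136893121, plus strand: gtgccaaaatgAGGAAGTgtctgccgtccc
Lyz2, chr10:117282355-117282384, plus strand: gtgtgcaaaacAGGAAGTtcctaccgatct
Pf4, chr5:90772413-90772442, minus strand: gatacaggatgAGGAAGTgctctgcagaag
F13a1, chr13:37049231-37049260, minus strand: tgggagccgttAGGAAGTtatttaagagcc
P2ry12, chr3:59263019-59263048, minus strand: agctaacaagaAGGAAGTtccccagtgaca
Sall1, chr8:89043025-89043054, minus strand: gcgcgggagttAGGAAGTtcgccgctcgcc

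The match lay 46 bases before the start of P2ry12, 47 before that of C1qb, 55 before that of Fcgr1 and 4 before that of Pf4, counted to its nearest base. It was present in 10 of 30 windows of the members (several genes have more than 1 start), or 33.3%, against 7.69% of all 32851 windows. Other strings gave 26.7% against 10.6% for GAGGAAG, 40.0% against 19.7% for GGAAGT, 6.67% against 2.44% for GAGGAAGT, 10% against 12.4% for TATAAA and 3.33% against 4.46% for TGACTCA. The first 3 of these overlap AGGAAGT, and AGGAAGT was chosen for display after the strings had been counted. A match is only a run of letters and does not show that a factor binds there. The C1qb and Pf4 windows are given whole because they stand for a gene of both populations and a border macrophage gene, and C1qb lies beside C1qc and C1qa on chromosome 4.
C1qb, chr4:136886201-136886450, minus strand: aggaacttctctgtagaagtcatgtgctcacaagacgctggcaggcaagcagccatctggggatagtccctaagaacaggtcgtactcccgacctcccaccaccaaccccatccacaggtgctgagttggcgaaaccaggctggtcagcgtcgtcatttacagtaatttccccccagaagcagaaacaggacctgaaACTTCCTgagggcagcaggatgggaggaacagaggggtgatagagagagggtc
Pf4, chr5:90772185-90772434, plus strand: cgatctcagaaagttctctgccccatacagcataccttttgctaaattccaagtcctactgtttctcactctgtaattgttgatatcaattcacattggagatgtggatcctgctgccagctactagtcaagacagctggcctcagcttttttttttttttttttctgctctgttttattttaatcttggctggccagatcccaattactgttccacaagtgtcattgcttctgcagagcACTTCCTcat

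The transcripts made up a small and very unequal share of the libraries. Summed over the 31 genes, they took 0.0778%, 0.574% and 0.752% of the estimated counts in young libraries 1, 2 and 3 and 0.0440%, 0.283% and 0.120% in old libraries 1, 2 and 3. In CPM the sum was 759, 5443 and 7123 in the young libraries and 488, 2941 and 1223 in the old libraries, or 4442 ± 3298 (SD, n = 3) and 1551 ± 1259 (SD, n = 3). The highest library, young 3, had 14.6 times the level of the lowest, old 1. The groups overlapped, since young 1 lay below old 2 and old 3. Young 2 and young 3 had the highest 2 sums, so the members themselves single out this pair. Of the 30 genes with enough counts to test, 21 had this pair as their highest 2 libraries, against 7.66% of all 15394 genes tested. None had its lowest level in young 2 or young 3, whereas 15 were lowest in old 1, 7 in young 1, 6 in old 3 and 2 in old 2. Across all genes tested, 25.0% were lowest in old 1, 18.7% in young 1, 18.4% in old 3, 13.8% in old 2, 12.7% in young 2 and 11.3% in young 3.

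**Figure D1:**
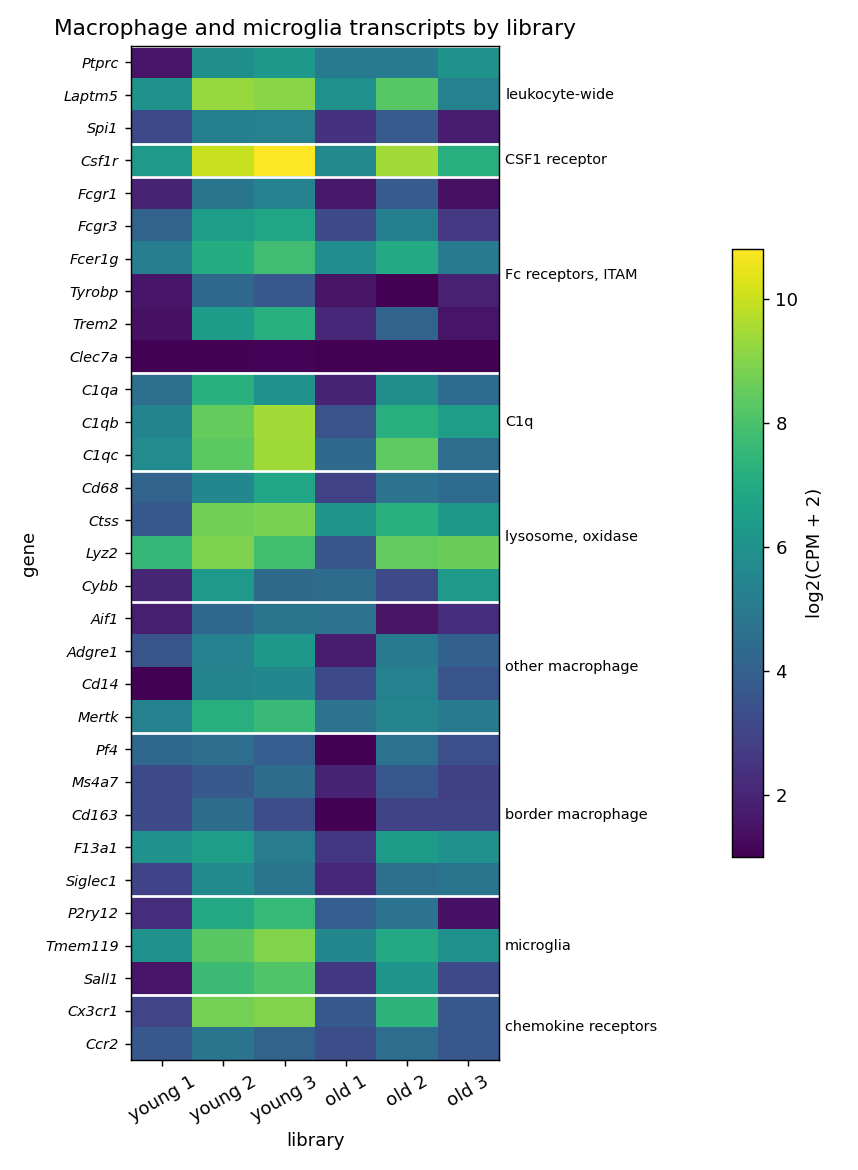
Level of each of the 31 genes (rows, by role) in each of the 6 libraries (columns), as log2(CPM + 2). Young 2 and young 3 are bright for most rows, while old 1 is dark over the border macrophage rows, where Pf4 and Cd163 have 0 counts.

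Ptprc RNA was present in all 6 sorts, with the lowest level in a young library. It had 0.993, 57.4 and 72.7 CPM in young libraries 1, 2 and 3 and 30.98, 30.7 and 62.9 CPM in old libraries 1, 2 and 3. The 16 estimated counts in young 1 stood against 1131 and 1615 in the other young libraries, and the 3 old libraries lay between these extremes. Laptm5, a lysosomal membrane protein of leukocytes, had 63.4, 635 and 536 CPM in the young and 59.4, 304 and 37.9 CPM in the old libraries, so that old 3, the old library highest in Ptprc, was the lowest in Laptm5. Spi1 ranged from 1.42 CPM in old 3 to 36.8 CPM in young 3. Csf1r, the receptor for the growth factors CSF1 and IL34, was the most abundant of the 31 genes in CPM, with 77.8, 1006 and 1798 CPM in the young and 46.6, 695 and 141 CPM in the old libraries. The number of Csf1r counts per Ptprc count was 78.3, 17.5 and 24.7 in the young libraries and 1.505, 22.6 and 2.24 in the old libraries, so that the Ptprc counts of old 1 and old 3 came with far fewer Csf1r counts than those of the other 4. Exons of Csf1r overlap those of Hmgxb3 on the opposite strand, and whether reads were counted by strand is not stated in these sources. Hmgxb3 had between 28.2 and 76.7 CPM, and its part in the Csf1r values was not tested.

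Among the Fc receptors and the proteins that signal through an ITAM (a tyrosine motif that recruits the kinase Syk), Trem2 had the widest span between young libraries. Trem2, a lipid-sensing receptor that pairs with Tyrobp, had 0.683, 83.6 and 141 CPM in the young and 2.24, 15.3 and 0.976 CPM in the old libraries. Young 1 was thus the lowest of the 6 and young 3 the highest, and the groups overlapped. Fcgr3, a low-affinity receptor for IgG, had 15.3, 88.6 and 108 CPM in the young and 7.48, 35.9 and 4.20 CPM in the old libraries. Fcgr1, the high-affinity IgG receptor, ranged from 0.683 CPM in old 3 to 38.3 CPM in young 3. Fcer1g, the common gamma chain that carries the ITAM for Fc receptors, had 34.6, 131 and 221 CPM in the young and 54.8, 128 and 29.8 CPM in the old libraries. Its highest level was 7.42 times its lowest, a narrower span than that of Trem2 at 206 times. Tyrobp, the adaptor of Trem2, had 0.993, 17.8 and 10.8 CPM in the young and 0.898, 0 and 1.71 CPM in the old libraries. Old 2 thus had 210 counts of Trem2 and 0 of Tyrobp, where a count of 0 allows up to 0.218 CPM (3 counts, counting error only). Clec7a, a receptor for fungal beta-glucan, had 1, 2 and 3 counts in the young libraries and 0 in each old library and was too low to test.

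The 3 genes of C1q, the recognition part of the first complement component, lie side by side on chromosome 4 of GRCm38, with C1qb (136880129 to 136886187), C1qc (136889804 to 136893065) and C1qa (136895917 to 136898803) all on the minus strand. C1qc had 50.8, 320 and 681 CPM in the young and 18.3, 329 and 20.7 CPM in the old libraries. C1qb had 41.5, 360 and 690 CPM in the young and 9.35, 141 and 88.5 CPM in the old libraries. C1qa had 21.3, 147 and 61.0 CPM in the young and 1.95, 56.4 and 19.6 CPM in the old libraries. Old 1 was the lowest library for all 3 genes, and young 3 or young 2 the highest. The chains of C1q are assembled in equal numbers, but their RNA shares differed between libraries. C1qa made up 18.7%, 17.8% and 4.26% of the C1q counts in the young libraries and 6.57%, 10.7% and 15.2% in the old libraries. C1qb took between 26.8% (old 2) and 68.7% (old 3), and C1qc between 16.1% (old 3) and 62.5% (old 2). These shares rest on 396 counts in old 1 and on 1831 to 31813 counts in the other libraries. The Wilson 95% interval of the C1qa share was 4.52% to 9.45% in old 1, the shallowest, and 4.04% to 4.49% in young 3, and such intervals cover counting error only. The input RNA was amplified before sequencing, per the labels' protocols, and the part of amplification in these shares was not tested.

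**Figure D2:**
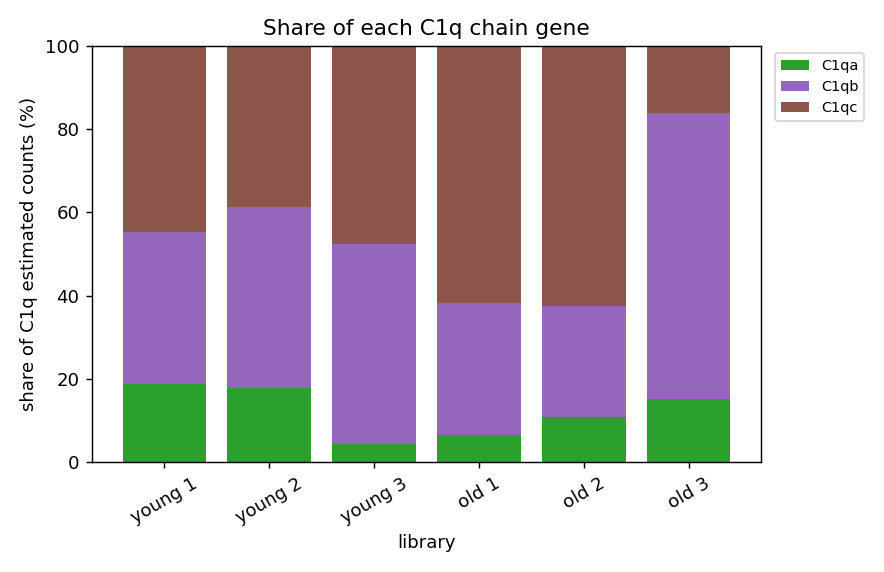
Share of C1qa, C1qb and C1qc in the summed estimated counts of the 3 genes (bars, %) in each library. C1qb takes 68.7% in old 3 and 26.8% in old 2, and C1qa takes 4.26% in young 3 against 18.7% in young 1.

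Genes of phagocyte lysosomes and of the oxidase did not follow a single order of libraries. Lyz2, the lysozyme of macrophages, monocytes and neutrophils, had 184, 475 and 229 CPM in the young and 9.88, 353 and 392 CPM in the old libraries. Only old 1 stood apart, and old 3 was the second highest. Lyz1, its near-identical copy, had at most 2 counts in any library. Ctss, a cathepsin that trims peptides and the invariant chain, had its lowest level in young 1 (10.98 CPM) and its highest in young 3 (452 CPM). Cd68, a lysosomal glycoprotein, ranged from 5.46 CPM in old 1 to 110 CPM in young 3. Cybb, the catalytic subunit of the phagocyte NADPH oxidase, was at 78.1 CPM in young 2 and at 75.7 CPM in old 3, against 2.17 to 20.3 CPM in the other 4 libraries. The neutrophil genes S100a8 and S100a9 were highest in old 3, at 89.6 and 72.4 CPM. Lyz2 and Cybb were instead highest in young 2, where S100a8 and S100a9 had 18.6 and 17.7 CPM. The part of neutrophils in the Lyz2 and Cybb values was not tested. Mertk, a receptor for engulfment of dead cells, had 38.5, 142 and 201 CPM in the young and 24.8, 42.7 and 31.6 CPM in the old libraries. Old 2, at 42.7 CPM, lay just above young 1, at 38.5 CPM. Of the other macrophage markers, Adgre1, which encodes F4/80, ranged from 1.42 to 73.3 CPM, Aif1, which encodes Iba1, from 0.872 to 25.9 CPM, and Cd14, a co-receptor for lipopolysaccharide, from 0.0621 CPM (1 count, in young 1) to 45.3 CPM.

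Between genes, levels were compared per kilobase of merged exon length, as the mean over the 6 libraries. On that scale Lyz2 (208 CPM per kb), C1qb (204), Ctss (144), C1qc (123), Fcer1g (114) and Csf1r (109) led, while Ptprc had 2.33 and Siglec1 3.03 CPM per kb. The order depends on the length used: by the longest transcript, C1qc had 197 and Fcer1g 146 CPM per kb, above Ctss at 144, and Ptprc had 7.43, above Siglec1 at 3.39. The amplification step can favour 1 end of a transcript, in which case division by length would understate long genes, which was not tested.

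Microglia genes and border macrophage genes ordered the libraries differently. P2ry12, a purine receptor of microglia, had 2.85, 119 and 187 CPM in young libraries 1, 2 and 3 and 13.4, 24.5 and 0.781 CPM in old libraries 1, 2 and 3. Sall1 had 0.993, 210 and 282 CPM in the young and 3.97, 69.7 and 6.88 CPM in the old libraries. Both were high in young 2 and young 3, intermediate in old 2 and lower in young 1, old 1 and old 3. For P2ry12, however, old 1 (13.4 CPM) lay nearer in ratio to old 2 (24.5 CPM) than to young 1 or old 3. Tmem119, a membrane protein used to tell microglia from macrophages, had the same order for its highest 3 libraries but was well above the other microglia genes in the low libraries, with 60.1, 310 and 494 CPM in the young and 45.6, 118 and 59.0 CPM in the old libraries. Young 1 thus had 968 counts of Tmem119 beside 16 of Sall1 and 46 of P2ry12, and which cells supplied the Tmem119 RNA was not tested. Cx3cr1, the fractalkine receptor, which is strongest in microglia and present in some macrophages, had 6.21, 427 and 494 CPM in the young and 10.999, 161 and 11.5 CPM in the old libraries. Ccr2, the chemokine receptor of monocytes, had the narrowest span of the 30 tested members, from 8.01 CPM in old 1 to 25.2 CPM in young 2, a factor of 3.15.

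The border macrophage genes had other profiles. F13a1, a transglutaminase of macrophages and platelets, had 61.1, 85.6 and 32.7 CPM in the young and 3.97, 78.6 and 60.4 CPM in the old libraries. Pf4, a chemokine of platelets and border macrophages, had 18.1, 20.9 and 13.1 CPM in the young and 0, 23.9 and 8.40 CPM in the old libraries. For both, 5 libraries lay close together and old 1 stood apart, and a count of 0 in that library allows up to 0.224 CPM. Cd163, a scavenger receptor for haemoglobin and haptoglobin, had 7.45, 20.3 and 7.97 CPM in the young and 0, 6.18 and 6.00 CPM in the old libraries. It was the 1 tested gene of the 31 whose groups did not overlap, all old libraries lying below all young ones, and 6.44% of all genes tested had such an order. Siglec1, a sialic acid-binding lectin, had 5.83, 47.9 and 25.3 CPM in the young and 2.24, 22.8 and 25.7 CPM in the old libraries. Ms4a7, a tetraspan membrane protein, had 7.14, 11.5 and 20.4 CPM in the young and 1.80, 11.2 and 5.27 CPM in the old libraries. Old 1 was the lowest library for all 5 border macrophage genes. Platelet genes were low in most libraries, and the 7 platelet markers summed to between 2.92 and 42.3 CPM, with the top value in old 2, where Ppbp had 42.1 CPM, and Ppbp had 0 counts in every young library. Without Pf4 and F13a1, the border genes that platelets also express, the log2 ratio of microglia to border genes, per kilobase, rose in every library. Leaving genes out of the border sum can only raise it. It went from −0.475 to 2.85 in young 1 and from 0.032 to 2.20 in old 3, the lowest 2 libraries, which exchanged places. Old 1, from 4.30 to 5.16, and young 3, from 3.38 to 5.15, stayed the highest but became nearly equal. The part of platelets in these values was not tested.

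**Figure D3:**
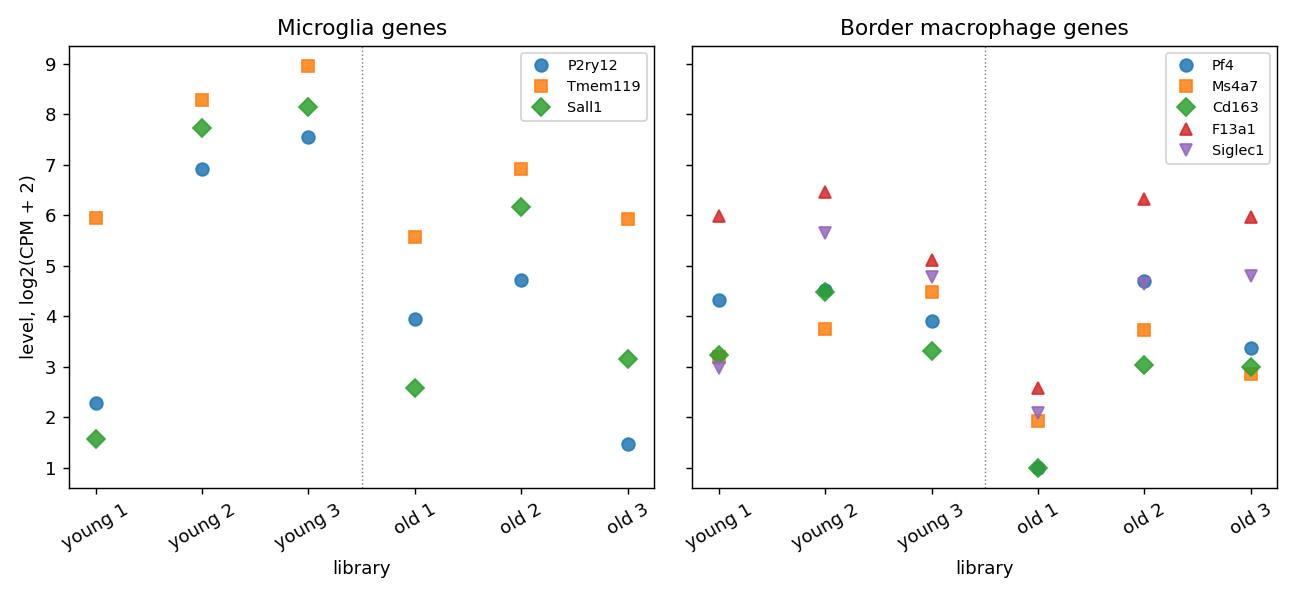
Levels of the 3 microglia genes (left) and the 5 border macrophage genes (right) in each library, as log2(CPM + 2), with a dotted line between young and old libraries. P2ry12 and Sall1 are high in young 2 and young 3 and low in young 1 and old 3, while F13a1 and Pf4 differ less among the libraries other than old 1, where the points of Pf4 and Cd163 coincide.

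Libraries of the same age differed in these genes too, and how the gene groups compared depended on the pair taken. The pairs young 2 with young 1 and old 2 with old 3 were chosen after their values were seen, and old 2 with old 1 is given beside them. Between young 2 and young 1, Sall1 was 211 times, Cx3cr1 68.9 times and P2ry12 41.7 times higher in young 2, whereas F13a1 was 1.40 times, Pf4 1.16 times and Ms4a7 1.61 times higher. Between old 2 and old 3, P2ry12 was 31.3 times, Cx3cr1 14.05 times and Sall1 10.1 times higher in old 2, against 2.85 times for Pf4, 2.12 times for Ms4a7, 2.00 times for Tmem119, 1.30 times for F13a1 and 1.03 times for Cd163. Siglec1 was lower in old 2, at 0.887 times its level in old 3. Between old 2 and old 1 the border genes differed more than the microglia genes. Their summed CPM was 17.8 times higher in old 2, against 3.37 times for the microglia genes, with F13a1 at 19.8 times, Sall1 at 17.6 times, Tmem119 at 2.59 times and P2ry12 at 1.83 times. On the log2(CPM + 2) scale, the median of young 2 minus young 1 was 4.64 over the 3 microglia genes, 0.56 over the 5 border genes and 0.01 over all genes tested. The median of old 2 minus old 3 was 3.01, 0.37 and 0.02. For old 2 minus old 1 it was 1.33 over the microglia and 2.55 over the border genes. Single genes crossed the groups in both chosen pairs, with Siglec1 (2.67) above Tmem119 (2.33) between the young libraries and Pf4 (1.32) above Tmem119 (0.98) between old 2 and old 3. The differences in both chosen pairs were above 1 for 14 of the 30 tested members and for 4.91% of all genes tested. The 14 were Csf1r, Laptm5, Spi1, Trem2, Fcgr1, Fcgr3, Fcer1g, C1qa, C1qc, Cd14, Ctss, P2ry12, Sall1 and Cx3cr1. None of the 5 border genes was among them, which for so few genes is near the share over all genes tested.

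**Figure D4:**
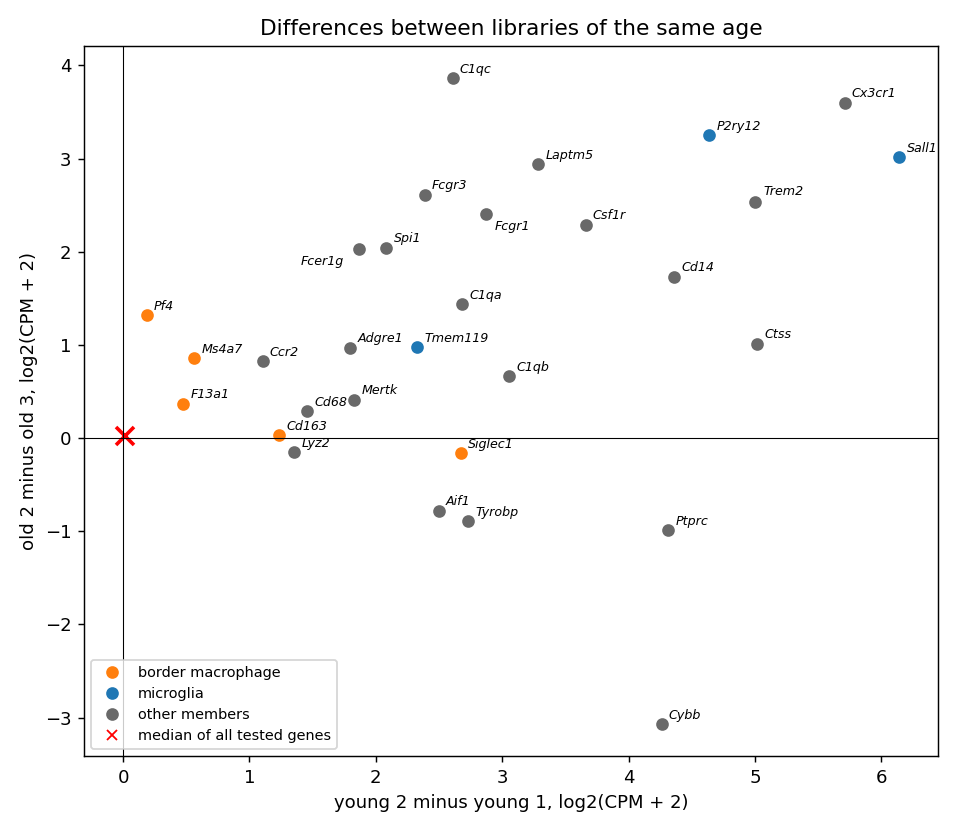
Difference between young 2 and young 1 (horizontal) and between old 2 and old 3 (vertical) for the 30 tested members, each in log2(CPM + 2). Sall1, Cx3cr1 and P2ry12 lie at the upper right, Pf4, Ms4a7, F13a1 and Cd163 lie nearer to the median of all tested genes, marked by a cross, and Cybb, Ptprc, Tyrobp, Aif1, Siglec1 and Lyz2 lie below 0 on the vertical axis.

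Further microglia genes that are not among the 31 were also high in young 2 and young 3 and intermediate in old 2. The 9 listed summed to 234, 2297 and 2255 CPM in the young and 171, 767 and 148 CPM in the old libraries, and 8 of them were above 1 in both within-age differences. P2ry13, a purine receptor, had 143 counts in young 1 and 6457 in young 3. Olfml3, a secreted glycoprotein that is not restricted to microglia, had 2427 and 8160. Of 10 further border macrophage genes tested, none was above 1 in both differences, with medians of 0.21 and 0.38. Since only 4.91% of all genes tested were above 1 in both, this count does not set the border genes apart from genes at large. Ms4a6b, a relative of Ms4a7, had 682 counts in young 1 and 59 in old 1. These genes did not share 1 order, since Ms4a6c, another relative, had 143 and 223 counts there and its highest CPM in old 1. Markers of neurons, astrocytes and oligodendrocytes summed to 44.4, 113 and 84.4 CPM in the young and 16.5, 126 and 124 CPM in the old libraries, so that old 3, low in microglia genes, was among the highest for neural genes. Their part in the microglia values was not tested.

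Per kilobase of merged exon, summed microglia genes exceeded summed border macrophage genes in 5 of 6 libraries, the fifth by a ratio of only 1.02. The count was 4 with the longest transcript as the length, with no length scaling or with the longer gene lists, 3 without Tmem119 and 6 without Pf4 and F13a1. The summed microglia level was 27.3, 220 and 340 CPM per kb in the young and 25.7, 73.9 and 27.1 in the old libraries. The summed border level was 37.9, 54.7 and 32.6 CPM per kb in the young and 1.31, 51.7 and 26.5 in the old libraries. Their ratio, microglia over border, was 0.719, 4.03 and 10.4 in the young and 19.7, 1.43 and 1.02 in the old libraries. The high ratio of old 1 came with the lowest border level of the 6, and with a summed microglia level close to that of young 1. That closeness rested on Tmem119, at 19.7 CPM per kb in old 1 and 25.9 in young 1. P2ry12 had 5.26 in old 1 against 1.12 in young 1, and Sall1 had 0.753 against 0.189. The high ratio of old 1 was not kept with longer lists that add the other border and microglia genes. There the log2 ratio of old 1 was 0.39 in place of 4.30, and young 3 was the highest at 3.48. Igf1 alone held 249 of the 300 CPM of the added border genes in old 1, and 827 of the 927 CPM in young 1. It was highest in young 1, where no tested member had its highest level, and which cells supplied its RNA was not tested. The part of Igf1 in the change of the ratio was not tested either. Tmem119 carried most of the microglia sum in all 6 libraries. It held nearly all of it in young 1 (25.9 of 27.3 CPM per kb) and old 3 (25.5 of 27.1). Without Tmem119 the ratio was 0.0346, 1.58 and 3.89 in the young and 4.605, 0.442 and 0.0609 in the old libraries. The log2 ratio was 1.64 ± 1.96 (SD, n = 3) in young and 1.62 ± 2.34 (SD, n = 3) in old libraries, a difference far smaller than the spread within either group.

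No member passed the test of old against young. In edgeR's quasi-likelihood test with Benjamini-Hochberg adjustment over all 15394 genes, 0 of 30 members were called, against 0.0% of all genes, and their smallest adjusted p was 0.787. DESeq2 and limma-voom also called 0 of the 30 members, against 0.844% of all genes (0.416% lower and 0.429% higher in old) and 0.0195% (0.0065% lower and 0.013% higher), respectively. At an unadjusted p under 0.05, edgeR counted 3 members, against 5.56% of all genes: Mertk, Tmem119 and Trem2. All 3 had lower means in old cells, a direction in which 2.70% of all genes reached that level, and no member was among the 2.86% that did so with a higher mean in old. The log2 fold change was −1.95 (SE 0.60) for Mertk, the young mean being 127 ± 82.4 CPM and the old mean 33.05 ± 9.03 CPM (SD, n = 3 each), with an edgeR adjusted p of 0.787. For Tmem119 the means were 288 ± 218 and 74.2 ± 38.6 CPM and the fold change −1.96 (SE 0.69) in log2. For Trem2 they were 75.0 ± 70.3 and 6.16 ± 7.90 CPM and −3.61 (SE 1.59). Fcgr3 and P2ry12 came next by p, at −2.16 (SE 0.98) and −2.999 (SE 1.41).

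The direction was nonetheless shared by nearly all members. A negative log2 fold change was found for 29 of the 30, against 49.0% of all genes, with a median of −1.58 beside 0.02 over all genes tested. Since the 30 values come from the same 6 libraries, they do not count as separate observations of an age difference. Other cell types moved along the same groups: all 8 fibroblast markers had negative values (median −1.17) and all 8 lymphatic markers positive ones (median 0.60), and the part of the make-up of the sorts in the members' values was not tested. Cybb, at 0.06 (SE 1.19), was the exception, and it had −0.073 with library size as the only scaling. Ptprc had −0.07 (SE 1.09) but 1.10 in limma-voom. The border macrophage genes had a median of −0.69 and the microglia genes a median of −2.61, with F13a1 at −0.33 (SE 0.88), Sall1 at −2.61 (SE 1.56) and Cx3cr1 at −2.34 (SE 1.41). Whether the gene groups differed in their age difference was not tested, and leaving out old 1 took the border median to −0.12, while leaving out old 2 took it to −1.88. The median microglia value ran from −3.87 without old 2 to −1.99 without young 3. The old to young ratio of the summed CPM, 0.349, was 0.192 without old 2 and 0.496 without young 3. The biological coefficient of variation was 89.4% at the median of the members, against 69.4% for all 11252 tested genes within the members' range of mean CPM.

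**Figure D5:**
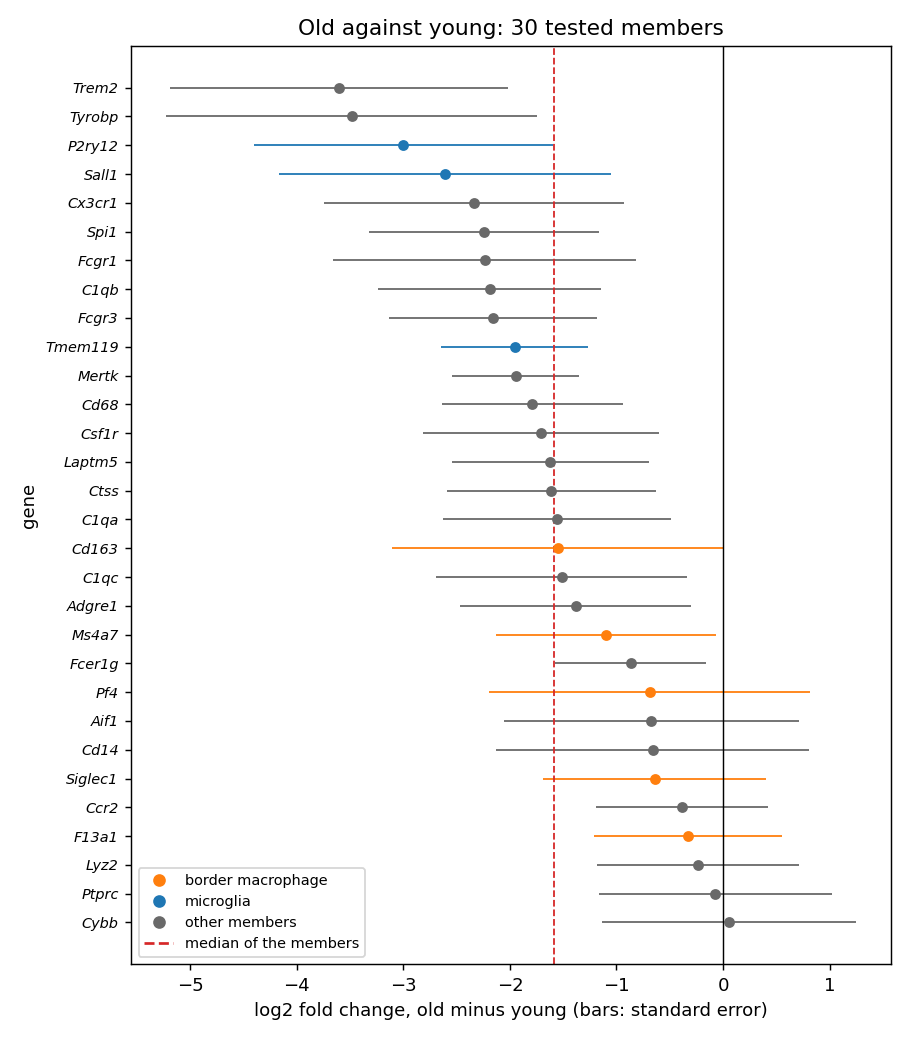
Log2 fold change, old minus young, of the 30 tested members (points) with the standard error (bars), with border macrophage and microglia genes in colour and the median of the members as a dashed line. Trem2, Tyrobp, P2ry12 and Sall1 have the most negative values, and F13a1, Lyz2, Ptprc and Cybb lie nearest to 0.

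Other genes of the same pathways were read beside the members, and none passed edgeR's test. Of 13 tested genes of Fc receptor and ITAM signalling, 10 had negative and 3 positive log2 fold changes, with a median of −1.06. The most abundant were Lyn, a Src family kinase, at 210 ± 39.3 CPM (young) and 256 ± 87.8 CPM (old), Sirpa, the receptor for CD47, with 271 ± 192 and 130 ± 47.4 CPM, and Inpp5d, the phosphatase SHIP1, with 124 ± 63.5 and 53.7 ± 36.5 CPM. Of 8 tested macrophage transcription factors, 5 were negative and 3 positive, with a median of −0.44. The 7 ligands listed had 5 negative and 2 positive values and a median of −0.78, and which cells supplied their RNA was not tested. Gas6, a ligand of Mertk, had 276 ± 120 and 161 ± 59.8 CPM. Border macrophage genes that lymphatic endothelium expresses as well varied least, with Stab1, a scavenger receptor, at 1351 ± 44.8 and 1366 ± 127 CPM and Lyve1, a hyaluronan receptor, at 1149 ± 168 and 1483 ± 95.2 CPM. Their summed level had a highest to lowest ratio of 1.23 over the libraries, against 23.3 for the border macrophage members and 15.3 for the microglia members.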

How the data were processed

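RNA of sorted meningeal cells was sequenced in 6 samples, grouped by the age in the labels. FastQC, Salmon and mm10 appear in the submitters' processing notes, without versions or roles. How genes were annotated, stranded and summed was not given in the sources used here. The deposited values are estimated counts per gene, already whole, so rounding changed nothing. Symbols and lengths came from GENCODE M21 (GRCm38), which matched 22738 of 22964 genes, and promoter sequences from RefSeq. The test of age was edgeR's quasi-likelihood test (edgeR 4.0.16, R 4.3.3) on the 15394 genes that filterByExpr kept (minimum 10 counts, total 15), with TMM scaling, robust estimation and two-sided p-values with Benjamini-Hochberg adjustment at 0.05. The standard error is the log2 fold change over the root of F. DESeq2 1.42.0, limma-voom 3.58.1, 2 other scalings, 2 filters, removal of mitochondrially encoded genes, a replicate block and leaving out each library were alternatives. The test was checked on simulated data, with a pass mark only at a spread far below that of the members. How often it would call changes in genes as variable as the members is therefore not shown. The members and lists were chosen with earlier results of these data known. By rule, all members were named. Values in every sample were given for Ptprc, the most abundant member of each role, all border and microglia members and the 5 smallest p. Other lists had at most their 3 most abundant genes named, except that Ms4a6c was added to show an order unlike that of Ms4a6b. Nothing states that libraries of a group are separate animals: the p-values therefore reflect the spread between libraries alone, which may be technical.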

Additional observations from a re-analysis of the deposited data

How the results depend on the processing

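DESeq2 called 130 genes, limma-voom 3 and edgeR without old replicate 1 called 1, against 0 in edgeR with all libraries, and leaving out any other library gave 0. Members called stayed at 0 under every setting run. With the replicate number as a block, edgeR again called 0 genes and 0 members, and the medians were −1.69 over members, −1.34 over border genes and −1.70 over microglia genes. Over all genes tested, deviations from the group means correlated at 0.08, 0.06 and −0.01 between same-numbered libraries. Other pairs of a young and an old library had −0.1 to 0.06. With 3 libraries per group, such values cannot decide whether the numbers pair the libraries. Over the settings that leave out no library, 235 of 240 member results kept their direction. The exceptions were Cybb at −0.073 with library size only, Ptprc at 1.10 in limma-voom and 0.82 with the replicate block, and Cd14 at 0.98 in limma-voom and 0.49 with the replicate block. Leaving out 1 library at a time turned 12 of 180 member results, with ranges of −0.64 to 0.50 for Ptprc, −0.71 to 0.33 for Lyz2, −1.27 to 1.70 for Cybb, −0.89 to 0.22 for F13a1 and −1.11 to 0.12 for Siglec1. The border median ran from −1.88 to −0.12, the microglia median from −3.87 to −1.99, the member median from −2.26 to −1.03 and the ratio of summed CPM from 0.192 to 0.496. The old minus young difference in the log2 ratio of microglia to border genes, −0.02, ran from −1.37 to 0.85. It was −0.26 without Tmem119, an alternative added after seeing the data. With the longer gene lists it was −1.38, and the ratio of old 1 went from 4.30 to 0.39 in log2. Igf1 was the most abundant of the border genes that these lists add. Clec7a had too few counts to test. Tyrobp had 0 counts in old 2, and Pf4 and Cd163 had 0 in old 1, where 3 counts equal 0.218 and 0.224 CPM, respectively. The lowest level in the other libraries was 8.40 CPM for Pf4 and 6.00 CPM for Cd163, both in old 3.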

Other observations

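Markers of other leukocytes had still other orders of libraries. The neutrophil genes S100a8 and S100a9 had 89.6 and 72.4 CPM in old 3, against 1.16 and 4.50 CPM in old 2 and 0 and 1 counts in young 1. Csf3r, listed with the neutrophil genes, instead had 49, 2304 and 2964 counts in the young and 30, 338 and 108 in the old libraries, so that its 3 highest libraries were those of P2ry12, Sall1 and Tmem119. The 8 neutrophil markers summed to between 7.78 CPM in old 1 and 217 CPM in old 3. Immunoglobulin heavy chain transcripts of Ighm had 19273 counts in young 2 and 25299 in old 3, against 376 to 3232 in the other libraries. Igkc, the kappa light chain, had 8766 and 10172 counts in old 2 and old 3, at most 194 in the other 4 libraries and 0 in young 3. Haemoglobin and other erythroid genes summed to 2.47 CPM in old 1, the library that was also lowest in border macrophage genes, and to between 79.8 and 879 CPM in the other 5. None of these genes passed edgeR's test over all genes.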
